A study of Homo sapiens with 4 samples.

Results

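To see where m6A peaks fell outside intact genes, the peaks on pseudogene exons were collected from meRIP-seq of OE-19 cells, an established cell line of adenocarcinoma of the esophagogastric junction. In meRIP-seq, an antibody enriches RNA fragments with N6-methyladenosine (m6A), and a peak is a region where such fragments gather. There were 2 m6A immunoprecipitation (IP) replicates of this line, each with its own peak list, and 2 input samples, for which no list was analysed here. The labels give the cells as UV fixed and name no other treatment and no genetic change. A peak was taken when its summit lay in an exon of a GENCODE gene whose type contains the word pseudogene and in no exon of a protein-coding or lncRNA gene. This gave 322 of 24607 peaks in replicate 1 and 213 of 19318 peaks in replicate 2, on 266 of 15233 annotated pseudogenes (1.75%). They made up 1.60% of the exonic summits in replicate 1 (95% Wilson confidence interval 1.44% to 1.78%) and 1.62% in replicate 2 (1.42% to 1.86%). A further 192 and 113 summits lay on a pseudogene exon but also on an exon of a protein-coding or lncRNA gene, and were left out. The lists carry no strand, so the strand was taken from the annotated pseudogene. They also hold no read numbers, so the depth is unknown, and intervals cover counting over peaks only. Of 6 epithelial markers (EPCAM, CDH1, KRT8, KRT18, KRT19 and ERBB2) 1 had an exonic peak in each list, and of 4 markers of other cell types (PTPRC, COL1A1, COL1A2 and PECAM1) 1 had one in replicate 1 and 0 in replicate 2. A gene without a peak can still be expressed, so these lists cannot check the identity of the cells.

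Pseudogenes are copies of genes that no longer code for the original protein. Processed pseudogenes are mRNAs that were reverse transcribed and inserted back into the genome, so they carry the joined exons of the parent and no introns. Unprocessed pseudogenes are duplicated stretches of a gene that keep its exon and intron layout, and unitary pseudogenes are genes that were themselves disabled, with no working copy left. Some of each kind are annotated as transcribed. The METTL3 and METTL14 complex writes m6A mainly at DRACH sites, of which GGAC is the core, and in spliced mRNA the exon junction complex keeps m6A away from the junctions.

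Each pseudogene was aligned to the transcripts of all protein-coding genes, and the best hit is called its closest coding match. For processed and unprocessed pseudogenes it was used in place of the parent gene, which it need not be. The best hit was ENSG00000283809 for TPM3P9 and RPL23A for CENPBD2P, although their symbols name other genes. At 418 of the 535 summits (255 in replicate 1 and 163 in replicate 2) the alignment covered the summit itself, which gave a matching place in the coding gene. The 4 windows that follow, each a replicate 1 summit with 50 nt on each side, show how close a pseudogene and its match can be. GGAC is in capitals in each pseudogene, and in each coding gene the capitals mark the bases that differ from the pseudogene. All are read 5′ to 3′ from hg38 on the strand of the gene, and all coding windows lie in coding sequence.

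PKD1P5, chr16:18385231-18385331, minus strand: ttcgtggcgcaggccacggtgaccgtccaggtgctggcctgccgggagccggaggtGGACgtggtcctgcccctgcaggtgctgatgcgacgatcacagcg
PKD1, chr16:2108670-2108770, minus strand: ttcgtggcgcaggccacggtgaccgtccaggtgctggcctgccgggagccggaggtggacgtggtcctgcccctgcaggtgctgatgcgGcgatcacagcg
PRKXP1, chr15:100554054-100554154, minus strand: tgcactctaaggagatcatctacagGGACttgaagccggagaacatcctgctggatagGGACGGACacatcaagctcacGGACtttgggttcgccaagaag
PRKX, chrX:3655160-3655260, minus strand: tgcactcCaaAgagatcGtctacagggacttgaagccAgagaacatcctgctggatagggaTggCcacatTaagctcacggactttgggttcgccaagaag
BEND3P1, chr10:50658888-50658988, plus strand: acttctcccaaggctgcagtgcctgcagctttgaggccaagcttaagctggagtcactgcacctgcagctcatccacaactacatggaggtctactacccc
BEND3, chr6:107070243-107070343, minus strand: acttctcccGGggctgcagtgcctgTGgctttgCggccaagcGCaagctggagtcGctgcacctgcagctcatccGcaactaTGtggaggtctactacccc
ENSG00000267056, chr19:15911606-15911706, minus strand: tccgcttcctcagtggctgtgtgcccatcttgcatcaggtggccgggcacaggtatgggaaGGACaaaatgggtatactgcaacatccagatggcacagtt
IPMK, chr10:58267422-58267493 and chr10:58237786-58237814, minus strand: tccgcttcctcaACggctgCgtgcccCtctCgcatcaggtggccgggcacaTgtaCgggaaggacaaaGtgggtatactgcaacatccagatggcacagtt

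The PKD1P5 window differed from PKD1 at 1 base and held 1 GGAC, as did PKD1. PRKXP1 differed from PRKX at 7 bases and held 4 copies of GGAC, against 2 in PRKX. The BEND3P1 window differed from BEND3 at 11 bases, and neither held GGAC. The ENSG00000267056 window differed from IPMK at 8 bases, with 1 GGAC in each. In IPMK this window is split over 2 exons, whereas in the processed pseudogene it is 1 unbroken stretch. Both lists had a peak on the pseudogene at each of these 4 places. Both also had one at the matching place of PKD1 and of BEND3, and neither had one at the matching place of PRKX or of IPMK.

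First, the peaks were sorted by pseudogene class. Processed pseudogenes carried the most peaks, with 125 in replicate 1 and 80 in replicate 2. Unprocessed pseudogenes had 66 and 37 and transcribed processed pseudogenes 57 and 45, so these classes changed places between the lists. Transcribed unitary pseudogenes had 43 and 28 peaks, transcribed unprocessed pseudogenes 30 and 21, and other types 1 and 2. Relative to the number annotated the order was different. A peak was found in replicate 1 on 12.9% of 155 transcribed unitary pseudogenes and on 8.398% of 512 transcribed processed pseudogenes, but on 0.986% of 10146 processed pseudogenes. The shares in replicate 2 were 10.97%, 7.03% and 0.670%. Transcribed unprocessed pseudogenes (2.08% and 1.25% of 961) and unprocessed pseudogenes (1.69% and 1.07% of 2609) lay between. The level of each RNA was not measured here, so shares of annotated genes also depend on which are expressed.

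Fold enrichment, the height of the summit relative to the local background of the peak caller, had quartiles of 4.61 and 8.63 around a median of 6.13 in replicate 1, and of 4.37 and 7.42 around 5.71 in replicate 2. Peaks on protein-coding exons had medians of 5.21 and 4.72, and peaks on lncRNA exons of 5.98 and 5.32. These differences were not tested. Leaving out the 1 and 2 peaks on other types (medians 11.9 and 9.08), the class medians within the pseudogenes ran from 5.40 for unprocessed to 6.42 for transcribed unitary pseudogenes in replicate 1, and from 5.12 for transcribed unprocessed to 6.13 for transcribed processed pseudogenes in replicate 2. Pseudogene peaks were narrower than those on protein-coding exons, with median widths of 268.5 bp and 289 bp against 318 bp and 367 bp. Peaks on lncRNA exons were nearer to the pseudogene peaks, at 288 bp and 304 bp.

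Next, the reproducibility of the pseudogene peaks was examined. In replicate 1, 164 of 322 peaks (50.9%) overlapped a peak of replicate 2 by at least 1 bp, against 60.6% of 18488 peaks on protein-coding exons and 56.7% of all peaks of the list. The difference from protein-coding exons was -9.70 percentage points (95% Newcombe interval -15.2 to -4.23, adjusted p = 0.00271 by Fisher's exact test). In replicate 2, 169 of 213 peaks (79.3%) overlapped a peak of replicate 1, against 95.9% of 12003 peaks on protein-coding exons and 74.6% of all peaks of the list. Here the difference was -16.55 points (-22.5 to -11.6, adjusted p = 3.23e-17, Fisher's exact test). These tests are two-sided, compare peaks within 1 library and were adjusted by the Benjamini-Hochberg method over 10 tests, so the p-values do not cover variation between cultures. Peaks on lncRNA exons, against which no test was made, were shared in 57.2% of 1285 cases in replicate 1 and 86.8% of 870 in replicate 2. In replicate 1 the difference from protein-coding exons was no longer past the threshold among windows found once in hg38, at -5.07 points (adjusted p = 0.337, Fisher's exact test). Limiting both lists to a fold enrichment of 5 or more, which also drops weaker partner peaks, gave -1.56 points (adjusted p = 0.759, Fisher's exact test). Limiting the tested list alone and keeping the other whole gave -18.6 points (adjusted p = 4.25e-09, Fisher's exact test). For a q of 1e-05 or less these values were -7.82 points (adjusted p = 0.0817, Fisher's exact test) and -7.50 points (adjusted p = 0.0537, Fisher's exact test).

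Stronger peaks were shared more often. In replicate 1, 16 of 44 pseudogene peaks under 4-fold, 41 of 112 between 4 and 6, 58 of 110 between 6 and 10 and 49 of 56 at 10 or more were shared. On protein-coding exons the shares in these bands were 35.2%, 54.8%, 79.3% and 95.8%, so the pseudogene peaks were lower from 4-fold upward. In replicate 2 the pseudogene shares were 75%, 75.3%, 80.5% and 95.7%, against 94.1% or more in each band on protein-coding exons. These bands were set after the values were seen and were not tested.

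Peaks on pseudogenes annotated as transcribed were shared more often in replicate 1. Of 130 such peaks 81 (62.3%) were shared, against 83 of 192 (43.2%) on the other types, a difference of 19.1 points (7.97 to 29.5, adjusted p = 0.00322, Fisher's exact test). In replicate 2 the shares were 86.2% of 94 and 73.9% of 119, a difference of 12.2 points (1.25 to 22.4) that did not pass the adjustment (adjusted p = 0.100, Fisher's exact test). The highest share was that of transcribed unitary pseudogenes in replicate 2, where 28 of 28 peaks were shared (87.9% to 100%), but in replicate 1 the share was 26 of 43 (60.5%, 45.6% to 73.6%). With both lists limited to a fold enrichment of 5 or more, the replicate 1 difference between transcribed and other types was 8.98 points (adjusted p = 0.368, Fisher's exact test), and with the tested list alone limited it was 19.7 points (adjusted p = 0.0123, Fisher's exact test). For a q of 1e-05 or less these values were 4.35 points (adjusted p = 0.660, Fisher's exact test) and 16.1 points (adjusted p = 0.0537, Fisher's exact test). No difference in sharing between processed and unprocessed origin passed the threshold. In replicate 1, 91 of 182 peaks of processed origin (50%) and 46 of 96 of unprocessed origin (47.9%) were shared, a difference of 2.08 points (-10.1 to 14.2, adjusted p = 0.866, Fisher's exact test). In replicate 2 these were 74.4% of 125 and 79.3% of 58, a difference of -4.91 points (-16.7 to 8.97, adjusted p = 0.722, Fisher's exact test). These intervals leave room for differences of more than 10 points in either direction in replicate 1. Peaks of unprocessed origin include those on near-identical copies of PKD1, 21 in replicate 1 and 16 in replicate 2. Of these, 14 and 16 were shared. The tests treat such peaks as independent, so the intervals are too narrow, and the sign of neither difference is interpreted.

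**Figure D1:**
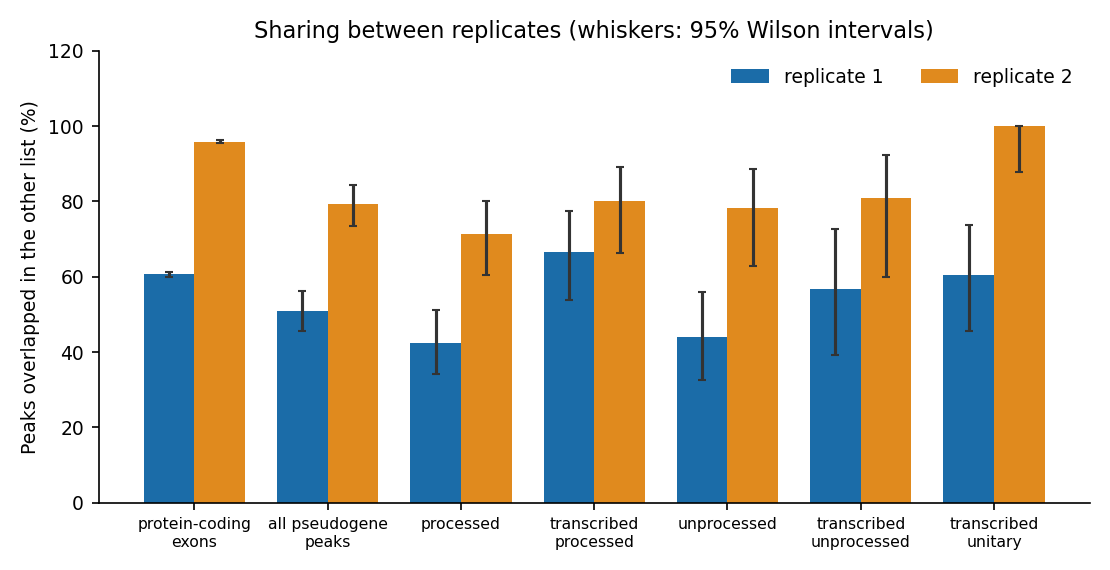
Share of peaks (%) overlapped by a peak of the other list, by class of the exon under the summit, in replicate 1 (blue) and replicate 2 (orange), with 95% Wilson intervals. All pseudogene peaks stood at 50.9% and 79.3%, below the 60.6% and 95.9% of protein-coding exons, and transcribed processed pseudogenes (66.7% and 80.0%) above processed ones (42.4% and 71.2%).

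In all, 149 pairs of peaks, 1 from each list on the same pseudogene and each the largest overlap of the other, were found on 117 pseudogenes. The summits of a pair were 30 bp apart at the median, and within 50 bp in 92 pairs. Across the pairs the log2 fold enrichment of the lists correlated with Pearson's r of 0.65 and Spearman's rho of 0.61, given as a description since the pairs share libraries, and 10835 pairs on protein-coding exons gave 0.70 and 0.69. Replicate 1 was higher in 103 of the 149 pairs (69.1%) and in 80.6% of the protein-coding pairs. At the median it was higher by 0.34 and by 0.44 on the log2 scale. The windows of 88 pairs were found once in hg38 at both summits.

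**Figure D2:**
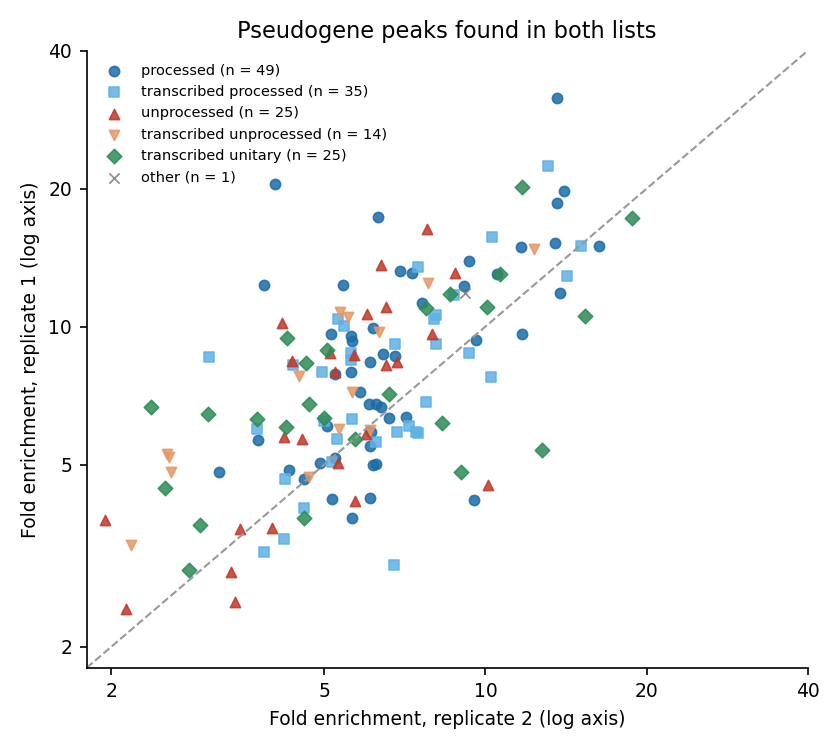
Fold enrichment in replicate 1 (y axis) against replicate 2 (x axis), both on log axes, for the 149 pairs of pseudogene peaks, with markers for the class and a dashed line at equal values. Replicate 1 was higher in 103 pairs, and the highest value, 31.6, belonged to ANKRD11P2.

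The strongest shared peak lay on ANKRD11P2, a processed copy of the gene for the chromatin regulator ANKRD11, at chrX:146620374-146620731. Its fold enrichment was 31.6 in replicate 1 and 13.6 in replicate 2. The window around the summit was identical to ANKRD11, whose coding sequence had a peak at the matching place in both lists, of 6.65-fold in replicate 1. DENND10P1, a transcribed processed copy of the endosomal DENN domain gene DENND10, had 22.4-fold and 13.1-fold enrichment at chrX:130496111-130496434, and its window was likewise identical to its match. A processed copy of IPMK, the inositol polyphosphate multikinase (ENSG00000267056), had 19.8-fold and 14-fold enrichment at chr19:15910660-15911198 with 2 differing bases, and IPMK had a peak at that place in both lists. Its second shared peak, at chr19:15911609-15911740, had 5.02-fold and 6.23-fold enrichment and is the one whose window is printed above with that of IPMK. These genes show that a strong pseudogene peak often had a twin at the matching place when the sequences were nearly the same.

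Other strong peaks had no twin. ENSG00000235721, a processed copy of the zinc finger gene ZNF532, had 18.6-fold and 13.6-fold enrichment at chr2:110008310-110008718 with 7 differing bases, and ZNF532 had no exonic peak in either list. PRKXP1, a copy of the protein kinase gene PRKX, had 14.9-fold and 11.6-fold enrichment at chr15:100553399-100554419, with no peak at the matching place. ENSG00000230638 is a processed copy of VIRMA, which codes for the scaffold of the m6A writer complex, and had 15.2-fold and 13.5-fold enrichment at chr1:41543664-41544322. That window differed from VIRMA at 27 bases and VIRMA had no peak there. At a second shared place of the same copy, with 9.53-fold and 5.61-fold enrichment, VIRMA had a peak in both lists, of 6.84-fold in replicate 1.

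Diverged copies could also have peaks at both places. BEND3P1, a transcribed processed copy of the gene for the heterochromatin protein BEND3, had 15.0-fold and 15.1-fold enrichment with 11 differing bases in replicate 1, and BEND3 had a peak at the matching place in both lists, of 7.49-fold in replicate 1. C10orf88B had 12.9-fold and 14.2-fold enrichment with 12 differing bases, and C10orf88 had one of 13.5-fold in replicate 1. ENPP7P11 had 15.0-fold and 16.3-fold enrichment and no closest coding match.

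Unitary pseudogenes have no parent by definition, so a match at their summits, found for 7 peaks in replicate 1 and 3 in replicate 2, is only the closest coding sequence. CENPBD1P had 3 peaks in each list, the strongest with 17.2-fold and 18.8-fold enrichment at chr16:89969880-89970968. C22orf46P had 4 and 3 peaks, the strongest with 20.2-fold and 11.7-fold enrichment. ZBED10P had a pair with 10.6-fold and 15.3-fold enrichment whose summits lay 984 bp apart, so the lists placed the highest point of that wide peak differently. CUTALP had 4 and 3 peaks, and in its pair at chr9:120851293-120852756 replicate 2 was the higher, with 12.8-fold against 5.37-fold enrichment.

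Unprocessed copies were led by PKD1P5, a transcribed copy of PKD1, the polycystin-1 gene. Its strongest pair had 14.7-fold and 12.4-fold enrichment at chr16:18385147-18385392, and PKD1 had a peak of 11.2-fold at the matching place in replicate 1. ENSG00000254851, a copy of part of the proprotein convertase gene PCSK7, had 16.3-fold and 7.77-fold enrichment, and its window was identical to PCSK7, which had a peak of 4.15-fold there in replicate 1. AGAP10P (13.1-fold and 8.79-fold) and AGAP13P (13.6-fold and 6.38-fold) are copies of AGAP4, of the Arf GTPase-activating family, with 1 differing base each and a peak at the matching place in both lists. ESPNP, a copy of the actin bundling gene ESPN, had 10.8-fold and 5.35-fold enrichment, with a peak at the matching place of ESPN in replicate 1 alone. ZNF731P had 9.72-fold and 6.32-fold enrichment with the same summit in both lists, and its closest match ZNF430 differed at 23 bases and had no peak there.

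Of 6 annotated pseudogenes with PKD1 as their closest match, 5 (PKD1P1, PKD1P2, PKD1P3, PKD1P4 and PKD1P5) had 37 peaks in all, 21 in replicate 1 and 16 in replicate 2. PKD1P2 had the most of any pseudogene, with 9 peaks of 2.42-fold to 10.2-fold enrichment in replicate 1 and 5 of 2.13-fold to 6.53-fold in replicate 2. PKD1P5 had 5 peaks of 5.18-fold to 14.7-fold and 7 of 2.55-fold to 12.4-fold. The windows were 95.05% to 100% identical to PKD1, and 34 of the 37 summits had a peak of the same list at the matching place of PKD1. Of the 37 peaks, 14 in replicate 1 and all 16 in replicate 2 were shared. The copies are also near-identical to each other, so their peaks are not independent of one another.

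The strongest peaks of replicate 1 without a partner in replicate 2 all lay on close copies. They were on ABHD17AP6 (17.1-fold), a copy of the depalmitoylase gene ABHD17A, on SEC1P (16.8-fold), whose closest match is the fucosyltransferase gene FUT2, on ENSG00000261819 (10.9-fold), whose closest match is KIAA2013, and on AHCTF1P1 (10.9-fold), a copy of the nucleoporin gene AHCTF1. All 4 windows had 0 differing bases, and each coding gene had a peak at the matching place in replicate 1. The strongest of replicate 2 alone lay on THAP12P7 (10.3-fold), which was identical to THAP12, on FTLP12 (8.79-fold), a copy of the ferritin light chain gene FTL with 19 differing bases, on HNRNPA3P13 (8.55-fold), with 9 differing bases, and on ENSG00000269896 (7.61-fold), with no match at the summit. FTL and HNRNPA3 had no exonic peak in replicate 2.

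It was then asked how often a pseudogene peak came with a peak at the matching place of the coding gene. This was the case for 93 of 255 summits in replicate 1 (36.5%, 30.8% to 42.5%) and 56 of 163 in replicate 2 (34.4%, 27.5% to 41.9%). For processed origin the shares were 45 of 161 (28.0%, 21.6% to 35.3%) and 23 of 104 (22.1%, 15.2% to 31.0%). Most summits of processed origin with a matching place therefore had no peak at that place of the closest coding match. For unprocessed origin they were 44 of 87 (50.6%, 40.3% to 60.8%) and 31 of 56 (55.4%, 42.4% to 67.6%). The near-identical copies of PKD1 gave 21 summits in replicate 1 and 16 in replicate 2, of which 19 and 15 had such a peak. The unprocessed summits are thus not independent, their intervals are too narrow, and no conclusion is drawn from intervals that do not overlap. Counted by gene, 113 of 216 pseudogenes with a peak and a match in replicate 1 (52.3%) had a match with an exonic peak anywhere, against 32.1% of all 14104 annotated pseudogenes with a match. In replicate 2 these were 63 of 152 (41.4%) against 23.1%. For unprocessed pseudogenes the shares were 67.2% against a background of 29.2% and 59.0% against 22.8%, and for processed ones 44.5% against 31.2% and 32.7% against 23.2%. The gap between the origins was not tested. The expression of the coding genes was not available in the lists, and its part in these shares was not tested.

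The share with a peak at both places was lower where the sequences had diverged. Among windows with at least 90 aligned bases, 33 of 47 (70.2%, 56.0% to 81.3%) of those identical to the match had a peak there in replicate 1. This was 26 of 55 (47.3%) with 1 to 3 differing bases, 17 of 79 (21.5%) with 4 to 9 and 14 of 57 (24.6%, 15.2% to 37.1%) with 10 or more. In replicate 2 the counts were 17 of 24 (70.8%, 50.8% to 85.1%), 16 of 31 (51.6%), 13 of 54 (24.1%) and 9 of 44 (20.5%, 11.2% to 34.5%). Where 2 windows are identical, a read that lies inside them cannot be told apart between the copies, and how reads with several equally good places were treated is not given in the sources used here. In hg38, the window was found at 2 or more places, at 98% identity or more over at least 95 nt, for 142 of 322 summits in replicate 1 (44.1%) and 73 of 213 in replicate 2 (34.3%). Such windows were the rule for unprocessed origin, with 80 of 96 and 39 of 58, and less common for processed origin, with 57 of 182 and 34 of 125. Among windows found once, 19.7% of summits in replicate 1 (13.7% to 27.4%) and 19.2% in replicate 2 (12.6% to 28.0%) had a peak at the matching place.

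**Figure D3:**
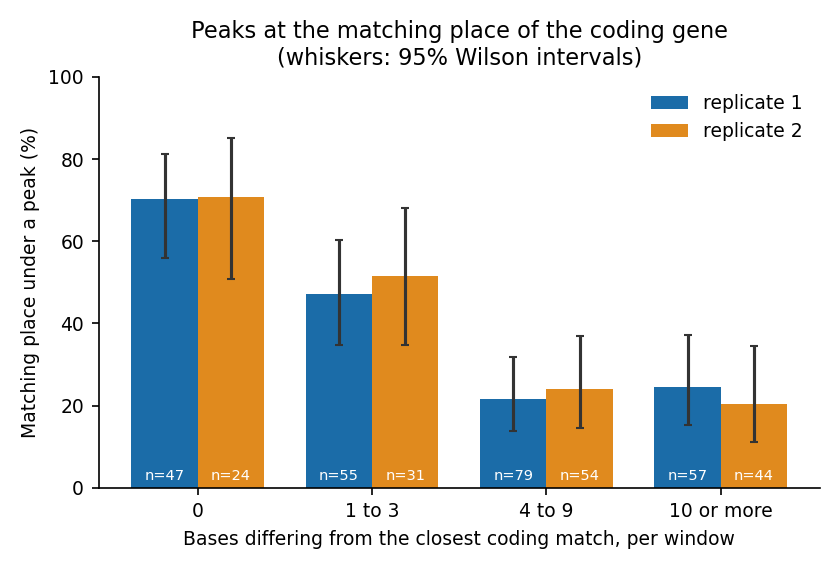
Share of pseudogene summits (%) with a peak of the same list at the matching place of the closest coding match, by the number of differing bases in windows with at least 90 aligned bases, for replicate 1 (blue) and replicate 2 (orange), with 95% Wilson intervals and the number of summits in each bar. The share went from 70.2% and 70.8% for identical windows to 24.6% and 20.5% for windows with 10 or more differing bases.

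The median fold enrichment of the peaks at both places was close. The value on the match is that of the highest peak covering the matching place, taken at the summit of that peak. A wide peak can thus stand for several pseudogene summits, as a PKD1 peak of 11.2-fold did for PKD1P5 in replicate 1. The places are therefore not independent of one another. Over the 93 summits with a peak at both in replicate 1 the median was 7.25 on the pseudogene and 6.65 on the match, and the pseudogene was the higher in 51 of them. Over the 56 in replicate 2 the medians were 5.63 and 5.34, and the pseudogene was the higher in 28. The median log2 ratio of pseudogene over match was 0.11 in replicate 1 and -0.03 in replicate 2. Pair by pair the values followed each other loosely, with a Pearson correlation of log2 fold enrichment of 0.17 over 93 places of 1 library in replicate 1 and 0.53 over 56 in replicate 2 (Spearman 0.21 and 0.47).

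Processed copies as a rule carry the joined exons of the parent, so the places of the exon junctions of the match can be looked for in them. Some pseudogenes annotated as processed have several exons themselves, such as C10orf88B with 8 and ZNF37BP with 5, and were kept in. Of 161 processed summits in replicate 1, 73 (45.3%, 37.8% to 53.1%) lay within 50 nt of a junction place. The share of bases as near was taken along the best-scoring alignment of each pseudogene and averaged over the summits. It was 44.9%. In replicate 2, 45 of 104 summits lay as near (43.3%, 34.2% to 52.9%), against 43.8% of the bases. The summits on processed copies were thus near former junctions about as often as the sequence itself. On protein-coding transcripts, by contrast, 10.6% of 16488 summits in replicate 1 (10.2% to 11.1%) lay within 50 nt of an exon junction, against 22.9% of the bases, and 4.83% of 10873 in replicate 2 (4.44% to 5.25%), against 20.5%. Unprocessed copies, which keep the introns, were in between, with 20.7% of 87 summits against 34.6% of the bases and 10.7% of 56 against 28.1%.

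The coding matches of processed pseudogenes rarely had a peak at these junction places. Of the 73 processed summits near a junction place in replicate 1, 6 had a peak at the matching place (8.22%, 3.82% to 16.8%), against 39 of 88 away from it (44.3%, 34.4% to 54.7%), a difference of -36.1 points (-47.4 to -23.0). In replicate 2 it was 1 of 45 (2.22%, 0.393% to 11.6%) against 22 of 59 (37.3%, 26.1% to 50.05%), a difference of -35.1 points (-48.0 to -20.5). For unprocessed pseudogenes in replicate 1 it was 6 of 18 (33.3%, 16.3% to 56.3%) against 38 of 69 (55.1%, 43.4% to 66.2%). The difference was -21.7 points, with an interval that included 0 (-42.1 to 3.99). In replicate 2 it was 1 of 6 against 30 of 50, a difference of -43.3 points (-61.8 to -1.31). Unprocessed summits include those on near-identical copies of PKD1, of which 15 of 16 had a peak at the match in replicate 2. The unprocessed intervals are thus too narrow, and no conclusion is drawn from them. The fold enrichment on processed pseudogenes was alike near and away from the junction places, with medians of 6.06 and 6.27 in replicate 1 and 6.16 and 5.61 in replicate 2. In replicate 1, 39.7% of the processed peaks near junction places were shared and 54.5% of those away from them, and in replicate 2 73.3% and 74.6%. This comparison was added after values had been seen, so it is given with intervals and no p-value. It was not made within genes, and matches without any exonic peak were kept in. Of 23 summits on copies of ribosomal protein genes over both lists, 18 lay near a junction place, and 0 of the 23 had a peak at the match. The part of such differences between genes in these shares was not tested. A fragment over a junction place is unbroken in a pseudogene of 1 exon and split in the coding gene, as in the printed IPMK window. A read from such a fragment is aligned by different steps, and the part of that in these shares was not tested.

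**Figure D4:**
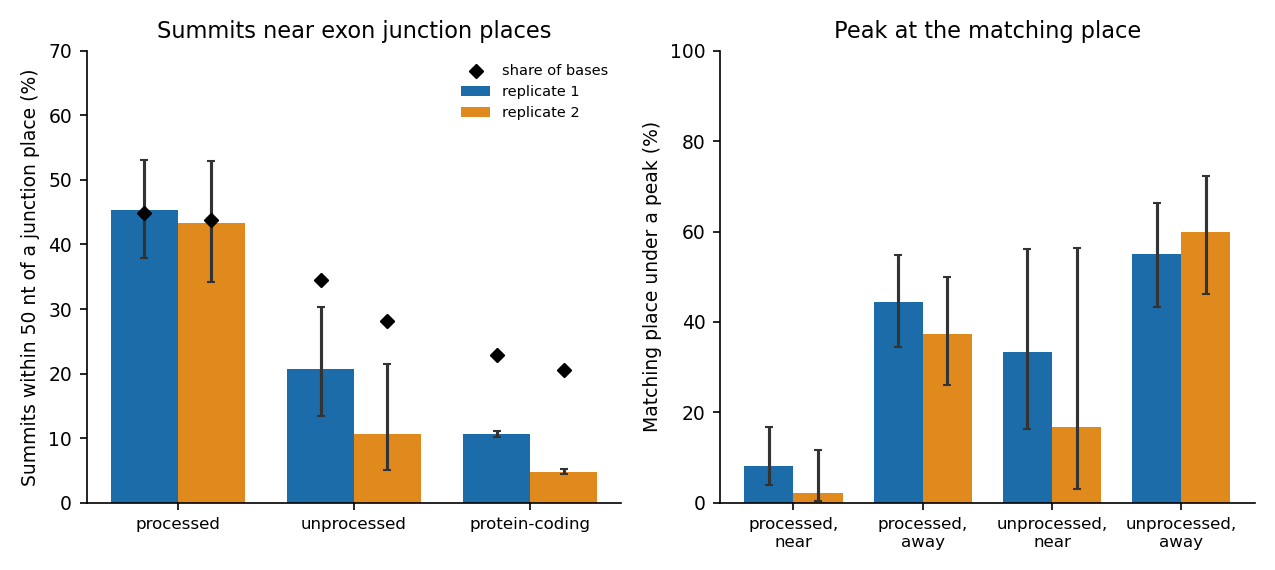
Left, share of summits (%) within 50 nt of an exon junction place of the match (pseudogenes) or of the transcript itself (protein-coding), with black diamonds for the share of bases that lie as near. Right, share of pseudogene summits (%) with a peak at the matching place, near and away from junction places, in replicate 1 (blue) and replicate 2 (orange), with 95% Wilson intervals. Processed summits stood at the share of bases (45.3% and 43.3%), protein-coding summits below it (10.6% and 4.83%), and processed summits near a junction place had a peak at the match in 8.22% and 2.22%.

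Along the match, most summits of processed origin fell in the former coding sequence. Of 161 in replicate 1, 128 (79.5%) matched coding sequence more than 200 nt before the stop codon, 28 (17.4%) lay within 200 nt of that codon, and 5 in the rest of the 3′ UTR. In replicate 2 these were 77, 23 and 3 of 104, with 1 in the 5′ UTR. The share of the aligned bases in each region was not counted, so these shares do not show a preference of the peaks for any region. A peak at the matching place was found for 33 of the 128 and 13 of the 77 in coding sequence, and for 9 of the 28 and 8 of the 23 around the stop codon.

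The m6A core motif was searched next, as the letters GGAC on the annotated strand within 50 nt of the summit. It was found at 159 of 322 pseudogene summits in replicate 1 (49.4%, 43.96% to 54.8%) and at 99 of 213 in replicate 2 (46.5%, 39.9% to 53.2%). Over all exonic summits of protein-coding, lncRNA and pseudogenes the shares were 49.8% and 51.6%. Against protein-coding exons the difference was -0.49 points in replicate 1 (-5.96 to 4.99, adjusted p = 0.866, Fisher's exact test) and -5.39 points in replicate 2 (-12.0 to 1.37, adjusted p = 0.183, Fisher's exact test). Across all windows centred on the exons of the same pseudogenes, GGAC was held by a mean of 37.4% and 35.8%, so the motif was more frequent at the summits in both lists. The reverse letters GTCC, which mark the opposite strand, were at 29.5% and 29.6% of summits, and at 30.6% and 29.0% of the windows of the same exons.

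Unprocessed origin had GGAC more often than processed origin in both lists, but neither difference passed the adjustment. Near-identical copies of PKD1 are among the unprocessed summits, with GGAC at 23 of 37 over both lists, so the intervals that follow are too narrow. In replicate 1 the shares were 56.2% of 96 and 44.5% of 182, a difference of processed from unprocessed of -11.7 points (-23.6 to 0.59, adjusted p = 0.129, Fisher's exact test). In replicate 2 they were 56.9% of 58 and 40.8% of 125, a difference of -16.1 points (-30.6 to -0.60, adjusted p = 0.111, Fisher's exact test). The windows of the same exons differed in the same direction, with 43.0% and 41.5% for unprocessed and 35.2% and 33.5% for processed origin. Base composition moved with this difference as well, with a mean GC content around the summit of 61.6% and 61.2% for unprocessed and 53.5% and 52.2% for processed origin, and its part was not tested. Transcribed processed pseudogenes stood lowest, with 17 of 57 (29.8%, 19.5% to 42.7%) and 13 of 45 (28.9%, 17.7% to 43.4%), close to the 27.4% and 28.7% of all windows of their exons.

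**Figure D5:**
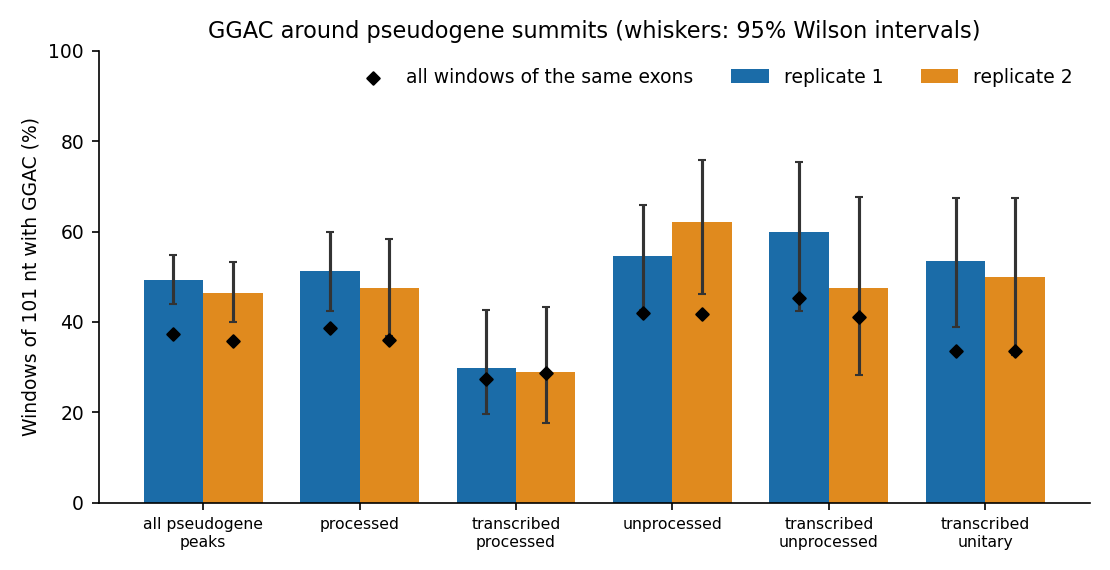
Share of windows (%) with GGAC within 50 nt of pseudogene summits, by class, in replicate 1 (blue) and replicate 2 (orange), with 95% Wilson intervals and black diamonds for all windows centred on the exons of the same pseudogenes. Over all pseudogene peaks the bars stood at 49.4% and 46.5% and the diamonds at 37.4% and 35.8%, while bar and diamond nearly met for transcribed processed pseudogenes.

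The motif was mostly the same in the pseudogene and its match. Of 255 aligned windows in replicate 1, 111 had GGAC in both sequences, 118 in neither, 12 in the pseudogene alone and 14 in the match alone. In replicate 2 these were 65, 78, 9 and 11 of 163. The windows with a motif on 1 side alone were thus few and about evenly divided.

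By what they copy, pseudogenes of ribosomal protein genes were the most numerous and seldom had a peak. Of 2194 annotated, 11 had a peak in either list (0.501%), against 199 of 13088 (1.52%) over all pseudogenes whose match covered at least 50% of their exons, and 5 of the 11 had a shared pair, among them RPL13P8, RPL7AP39 and RPL7AP45. Counting every summit aligned to a ribosomal protein gene, there were 23 peaks of 3.02-fold to 15.7-fold enrichment, the highest on RPLP0P2, and 0 of 23 had a peak at the matching place. Copies of tubulin and actin genes had a peak in 6 of 115 cases (5.22%), with shared pairs on ACTG1P1 and ACTG1P25. All 8 peaks on copies of ACTB and ACTG1 lacked a peak at the matching place, and 7 of the 8 windows held GGAC. Pseudogenes of zinc finger genes had a peak in 4 of 276 cases (1.45%) and a shared pair in each of the 4, including ZNF37BP with 5 peaks in replicate 1 and 3 in replicate 2. Copies of translation factor genes had a peak in 3 of 169 cases (1.78%), all in replicate 1 alone, copies of chaperone genes in 1 of 156 (0.641%), and copies of hnRNP genes in 4 of 135 (2.96%). The prefixes of these families were narrowed after the matches were seen, to leave out kinases and methyltransferases with like symbols.

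A few sets of copies of the same gene stood out. KRT8 codes for keratin 8, an intermediate filament protein of simple epithelia. Of 55 pseudogenes with KRT8 as the closest match, 5 had a peak, KRT8P2, KRT8P3, KRT8P4, KRT8P12 and KRT8P46, with 9 peaks of 3.82-fold to 8.63-fold enrichment and 79.6% to 93.1% identity. KRT8 itself had no exonic peak in either list. KRT8P46 at chr4:102729010-102729893 had 8.63-fold enrichment in replicate 1 and 6.77-fold in replicate 2. The 4 hnRNP copies were all of HNRNPA3, which has 19, and had 1 peak each, HNRNPA3P12 in replicate 1 and HNRNPA3P4, HNRNPA3P5 and HNRNPA3P13 in replicate 2, and 0 of the 4 were shared. All 4 summits lay near a junction place. HNRNPA3 had a peak at the matching place of 1 of them, HNRNPA3P12 in replicate 1.

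Nuclear copies of mitochondrial DNA were found in replicate 2 alone. Of 362 such pseudogenes, 8 (2.21%) had a peak in replicate 2 and 0 in replicate 1, on MTND2P9, MTND2P20, MTND5P3, MTND5P18, MTND5P19, MTND6P10, MTND6P19 and MTND6P25, and 0 of the 8 overlapped a peak of replicate 1. Over all 15233 annotated pseudogenes, 228 had a peak in replicate 1, 163 in replicate 2 and 266 (1.75%) in either list. The difference between the lists was not tested. Fold enrichment on the 8 copies ran from 4.23 to 6.85, and 1 of 8 windows held GGAC. GC content was 31.7% to 50.5%. Of the 213 pseudogene peaks of replicate 2, 44 were not shared, and these 8 were among them. Neither list held a peak on the mitochondrial chromosome. Over all 44 unshared peaks of replicate 2, GC content averaged 51.0%, against 56.4% for the 169 shared, and 3 of 38 with a matching place (7.89%, 2.72% to 20.8%) had a peak there, against 53 of 125 (42.4%, 34.1% to 51.2%). In replicate 1, unshared and shared peaks had 56.7% and 56.3% GC, and 36 of 131 (27.5%) and 57 of 124 (46.0%) had a peak at the matching place.

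The shared peaks with the lowest identity to a match were those of ENSG00000254783, whose window was 69.7% identical to IGSF21 with 6.77-fold and 6.26-fold enrichment, of ENSG00000226468, 73.3% identical to the nucleotide synthesis gene PRPS2 with 4.23-fold and 6.09-fold enrichment, and of ENSG00000230638, ZNF731P and the unitary NUDT16L2P. NUDT16L2P had 3 shared pairs, the strongest with 13.0-fold and 10.6-fold enrichment. At the other end were ANKRD11P2, DENND10P1, THAP12P7, ENSG00000254851 and RAB43P1, a copy of the small GTPase gene RAB43, each identical to its match around the summit. RAB43P1 had 13.1-fold and 7.31-fold enrichment, and RAB43 had a peak of 3.82-fold at the matching place in replicate 1. Over all pairs with a matching place in both lists, 47 had a peak there in both and 57 in neither.

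Last, the surroundings were examined. Of the pseudogene summits, 82 in replicate 1 (25.5%) and 45 in replicate 2 (21.1%) lay within the body of a protein-coding gene, outside its exons. For processed pseudogenes not annotated as transcribed these were 53 of 125 (42.4%) and 24 of 80 (30.0%), and for unprocessed ones 2 of 66 and 0 of 37. The share of all annotated pseudogenes of each class within such gene bodies was not counted. These counts therefore do not set the peaks apart from the annotation. A host gene of any kind on the same strand was present at 92 and 60 summits, where RNA of the host intron would carry the same sequence, and reads from the pseudogene and from the host RNA cannot be told apart.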

How the data were processed

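The peak lists of the 2 m6A IP replicates were used. By the study's methods, alignment to hg38 was done by the authors in TopHat2 and peak calling in MACS2, with default settings, and 1 peak list was deposited for each IP sample, whereas the submitters' processing notes name fastp, HISAT2 and MACS2. The releases and the use of the input as control are not stated. Per the labels the cells were UV fixed, and the methods describe fragmented total RNA incubated with an m6A antibody. The deposited values are the fold enrichment of the summit (a ratio to the local background) and −log10 of the p-value and q-value. The deposited score repeats the q-value and was not used. Multiply placed reads may have been kept or dropped, which bears on every near-identical copy.

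All 24 chromosome names matched hg38 with 0 peaks past an end, and 165 peaks on 31 unplaced scaffolds could not be members. Exons came from GENCODE version 44. A summit was assigned to protein-coding exons first, then lncRNA, then pseudogene exons, and 3 members lay on 2 pseudogenes and were counted once. Joined exons were searched with BLASTN 2.17.0 on the plus strand at an E-value of 1e-10 against the transcript with the longest CDS of each coding gene, leaving out genes that overlap the pseudogene. The hit of highest bit score was the match. A matching place was under a peak when any peak of the same list covered it. Shares have 95% Wilson intervals and differences 95% Newcombe intervals. The 10 tests were two-sided Fisher's exact tests within 1 list with Benjamini-Hochberg adjustment and a threshold of 0.05. The labels do not say whether the replicates are separate cultures. Named pseudogenes were the 12 strongest shared, the 4 strongest in each list alone, the 5 with the most peaks, the 3 strongest shared of each class, and the 5 lowest and 5 highest in identity to the match. BEND3P1 and the other printed windows, the KRT8, HNRNPA3 and PKD1 sets, the junction places and the repeats of the window in hg38 were chosen after values were seen. The members and lists were chosen with earlier results of these data known. The scripts were tested on simulated data. Python 3.11.15, pandas 2.3.3, numpy 2.4.6, scipy 1.17.1 and matplotlib 3.10.9 were used.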

Additional observations from a re-analysis of the deposited data

How the results depend on the processing

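Each value was computed again at stricter limits (q at most 0.01, q at most 1e-05, at least 5-fold enrichment), with peak midpoints, summits 100 bp or more from other exons, other overlap rules, motif windows and match rules, and, added after seeing the data, with windows found once in hg38, without unitary types, and with the limits on fold enrichment or q put on the tested list alone. Elsewhere these limits apply to both lists. Of 137 values under an alternative, 105 kept their direction and their side of the threshold or stayed within their error. The cause of the changes was not tested.

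In replicate 1, the GGAC difference from protein-coding summits turned to 0.63 points at q of 0.01, 1.26 at q of 1e-05, 1.26 with midpoints, 0.0818 with a motif window of 25 nt and 4.02 with windows found once, and in replicate 2 to 5.89 with midpoints, none past the threshold. The sharing difference of processed from unprocessed pseudogenes turned to -2.75 points with midpoints and -5.05 with windows found once in replicate 1, and to 1.69 at 5-fold enrichment, 2.43 with that limit on the tested list alone and 16.8 with windows found once in replicate 2, none past the threshold. The replicate 1 sharing difference from protein-coding exons lost its call at -7.82 (q of 1e-05), -7.50 (the same on the tested list alone), -1.56 (fold enrichment of 5) and -5.07 points (windows found once). That of transcribed from other types lost it at 4.35 (q of 1e-05), 16.1 (the same on the tested list alone), 8.98 (fold enrichment of 5) and 13.0 points (summits within 100 bp), and in replicate 2 it gained a call at 17.3 points with an overlap of 50% of both peaks and 19.6 with windows found once.

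The mean of the 2 median fold enrichments, 5.92, moved to 6.80 (q of 1e-05) and 6.95 (fold enrichment of 5), and the median identity, 94.6%, to 95.5% (q of 1e-05), 95.3% (90 or more aligned bases) and 91.6% (windows found once). Peaks at the matching place moved to 24.1% in replicate 2 at 5-fold enrichment, and to 19.7% and 19.2% with windows found once, which left 180 and 140 peaks. Pseudogenes with a peak numbered 163 without replicate 1 and 228 without replicate 2, against 266. No paired analysis was possible because the input samples, numbered 1 and 2 like the IP samples, had no peak list. Depth is unknown, so a missing peak does not show that m6A is absent.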
